A study of Mus musculus with 9 samples.

Results

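The genes described here are 9 regulators and markers of the embryonic diencephalon and of midline and surface tissues of the brain: Tcf7l2, Lhx9, Gbx2, Rora, Prox1, Calb2, Lef1, Zic1 and Zic4. They were found by gene symbol among the 27095 loci of the deposited table, and each of the 9 symbols matched 1 locus. The set was put together because Tcf7l2 was lower and Zic1 and Zic4 were higher in unaffected than in control fetuses, so the genes were chosen by their FPKM in that contrast, whose values are given as a description only. RNA was sequenced from 9 wild type C57BL/6 mouse fetuses on gestational day 17, with 3 control, 3 EtOH-exposed unaffected and 3 EtOH-exposed affected fetuses. The dams of the exposed fetuses had received 2.9 g/kg EtOH by intraperitoneal injection on gestational day 7, and control dams lactated Ringer's solution. Among exposed fetuses, affected means that ocular and cortical patterning defects were seen, and unaffected that they were not. The labels name the tissue as fetal brain, and the methods as the left and right cortex.

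TCF7L2 and LEF1 are DNA-binding partners of beta-catenin, the effector of canonical Wnt signalling, and switch their target genes between repression and activation. In the developing diencephalon, TCF7L2 marks postmitotic neurons of the thalamus and habenula, where it acts with the homeodomain proteins GBX2 and LHX9. The Zic genes encode zinc finger proteins related to the Gli factors and are transcribed in dorsal midline cells, septum, meninges and cerebellar granule neurons. Zic1 and Zic4 are neighbours that are transcribed away from each other.

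The reference promoter windows are shown because Zic1 and Zic4 lay in the same direction in each contrast and their deposited loci begin next to each other. Each window runs from 250 bases before to 50 bases after an annotated start (RefSeq, GRCm38.p6, the same assembly as mm10), and 8 of the 9 genes had 1 or more windows, 13 in all. The deposited loci of Zic1 (chr9:91360345-91365799, minus strand) and Zic4 (chr9:91365904-91389348, plus strand) are separated by 104 bases. The Zic1 window (chr9:91365719-91366018, minus strand) spans this gap, whose bases are in capitals.
Zic1: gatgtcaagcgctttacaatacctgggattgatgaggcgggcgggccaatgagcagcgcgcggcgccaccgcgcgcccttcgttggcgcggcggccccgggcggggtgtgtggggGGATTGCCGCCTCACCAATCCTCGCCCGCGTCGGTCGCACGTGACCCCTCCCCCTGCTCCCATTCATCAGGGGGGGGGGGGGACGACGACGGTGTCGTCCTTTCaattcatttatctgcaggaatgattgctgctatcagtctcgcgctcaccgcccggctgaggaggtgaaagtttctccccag
In the next window, of Tcf7l2 (chr19:55741560-55741859, plus strand), the dinucleotide CG is in capitals.
Tcf7l2: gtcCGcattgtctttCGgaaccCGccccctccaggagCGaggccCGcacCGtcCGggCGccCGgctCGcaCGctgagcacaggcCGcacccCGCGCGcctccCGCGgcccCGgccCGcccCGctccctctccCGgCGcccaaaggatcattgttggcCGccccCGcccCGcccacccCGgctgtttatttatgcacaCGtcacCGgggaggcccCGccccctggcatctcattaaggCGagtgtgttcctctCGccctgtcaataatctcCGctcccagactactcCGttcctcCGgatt
The Tcf7l2 window shown holds 34 CG dinucleotides and the Zic1 window 31, while the median of all 32851 windows in the reference table was 7. A second Tcf7l2 window (chr19:55895071-55895370, plus strand), which is not shown, holds 7. The other windows of the 9 genes hold between 5 and 28. The windows were searched on both strands for CTTTGAT or CTTTGAA, which are forms of the site bound by TCF/LEF factors, and for CCTGCTG, which is part of a Zic site. The 2 motif groups do not overlap in sequence. Of all windows, 8.65% hold one of the TCF/LEF forms and 10.5% the Zic form. Among the genes, the Zic4 window (chr9:91368722-91369021, plus strand, inside the deposited locus and not overlapping the Zic1 window) held 1 TCF/LEF form, and the Lef1 window (chr3:131110047-131110346, plus strand) held 1 Zic form, both printed here in capitals on the strand opposite to the letters given above.
Zic4: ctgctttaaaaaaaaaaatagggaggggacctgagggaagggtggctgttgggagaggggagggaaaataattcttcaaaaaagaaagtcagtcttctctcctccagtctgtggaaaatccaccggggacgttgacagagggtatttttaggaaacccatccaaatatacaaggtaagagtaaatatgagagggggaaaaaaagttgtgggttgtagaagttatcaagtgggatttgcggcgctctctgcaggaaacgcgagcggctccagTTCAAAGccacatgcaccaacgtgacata
Lef1: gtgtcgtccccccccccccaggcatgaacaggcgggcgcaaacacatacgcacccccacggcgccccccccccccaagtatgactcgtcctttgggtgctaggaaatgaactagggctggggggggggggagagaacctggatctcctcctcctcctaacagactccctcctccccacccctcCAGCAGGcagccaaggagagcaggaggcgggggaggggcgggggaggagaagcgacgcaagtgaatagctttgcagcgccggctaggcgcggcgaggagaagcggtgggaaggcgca
A second Lef1 window overlaps the first and holds the same match, and no other window of the 9 genes held either motif. A match is a description of the letters, and binding was not measured.

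The values are FPKM, fragments per kilobase of exon scaled to the number of mapped fragments, with 1 value per locus and group that the authors took over the 3 fetuses of the group. Values of single fetuses were not analysed here. The spread between animals is therefore unknown for every value, no test was run, and the terms higher and lower compare group values only. A locus was counted as different where the groups differed by at least 1.5-fold, among loci with a mean FPKM of at least 1 over the 3 groups. Steps of single fragments among weakly transcribed loci correspond to about 23400000, 25600000 and 33100000 fragments per library in control, unaffected and affected fetuses. From these steps and the annotated transcript lengths, the 9 genes rest on about 153 to 6395 fragments in control, 202 to 9499 in unaffected and 140 to 7324 in affected fetuses. When each group was instead rescaled to the same summed FPKM, every log2 ratio of unaffected against control was lower by the same amount, and the median of all loci moved from 0.0073 to -0.33. Directions in that contrast are therefore given for the deposited FPKM, in which the median locus was close to equal. The counting errors given below are standard errors of the log2 ratio from these estimates and leave out all variation between animals. As a check of the tissue, the cortical markers Neurod6 (409, 378 and 416 FPKM in control, unaffected and affected), Tbr1 (75.7, 62.1 and 98.3) and Emx1 (37.0, 39.0 and 37.0) were abundant. In contrast, 20 of 25 markers of midbrain, cerebellum and hindbrain stayed below 0.1 FPKM in every group, and Hoxa3, Hoxa5, Hoxb2 and Hoxb3 were listed at 0 in all groups.

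Calb2 was the most abundant of the 9 genes per length in every group, followed by Zic1, and Rora was the least abundant, after Gbx2. Tcf7l2 was the fourth in control fetuses and the seventh in both exposed groups. Because the spread between animals was not analysed here, no neighbouring pair in this order could be said to differ. A total of 7 genes had a mean FPKM of at least 1, while Gbx2 and Rora were below it and enter no count.

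**Figure D1:**
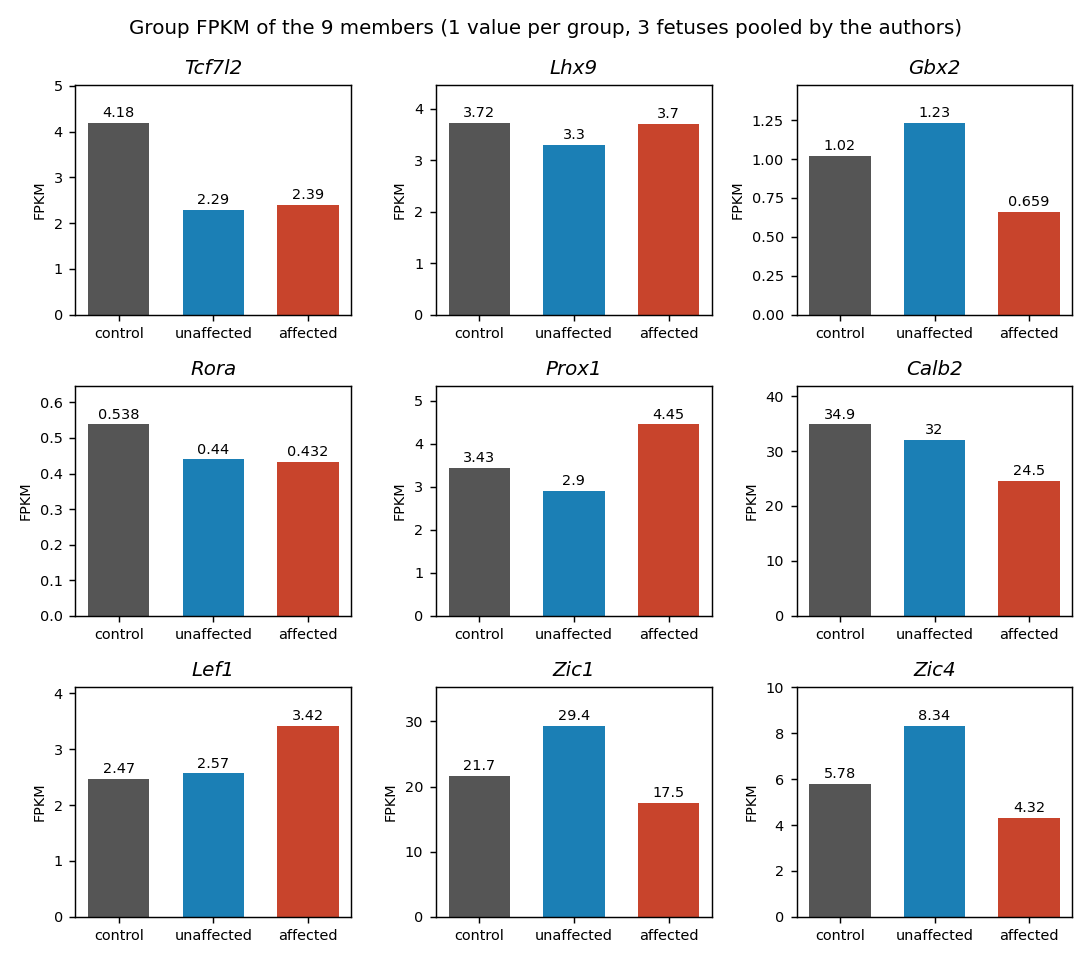
Group FPKM (vertical axes, each starting at 0) of the 9 genes in control, unaffected and affected fetuses, with 1 bar per group and no error between animals. Tcf7l2 is low in both exposed groups, at 2.29 and 2.39 FPKM against 4.18 in control, whereas Zic1 and Zic4 are highest in unaffected and lowest in affected fetuses.

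Tcf7l2 (chr19:55741810-55933655 of mm10, plus strand) had 4.18 FPKM in control, 2.29 in unaffected and 2.39 in affected fetuses. Both exposed groups were therefore low, and they were close to each other. Against control, the gene was 1.82-fold lower in unaffected (log2 ratio -0.87, counting SE 0.080) and 1.75-fold lower in affected fetuses (-0.80, counting SE 0.074). The ratio between affected and unaffected fetuses was 0.06 (log2, counting SE 0.084). Both contrasts with control use the same control value, so they are not independent of each other. In unaffected against control, Tcf7l2 was 1 of 7 genes at least 1.5-fold different, while 5.52% of 15463 loci were, 3.05% lower and 2.47% higher. This contrast chose the gene, and nothing is read from the count. In affected against control, Tcf7l2 was again the only 1 of the 7 genes past 1.5-fold, where 6.62% of 15474 loci were, 3.14% lower and 3.48% higher. Vti1a, an upstream neighbour that was chosen after its values were seen, had log2 ratios of -0.07 in unaffected and -0.02 in affected fetuses against control.

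In the deposited FPKM, the other TCF/LEF genes were not low in the exposed groups. Lef1 (chr3:131110297-131224357, plus strand) encodes the related factor that is needed for hippocampal development and is also present in brain endothelium. It had 2.47 FPKM in control, 2.57 in unaffected and 3.42 in affected fetuses, so that only the affected group stood higher. Its log2 ratio was 0.05 (counting SE 0.082) in unaffected against control, 0.47 (counting SE 0.073) in affected against control and 0.42 (counting SE 0.070) in affected against unaffected fetuses, and the first of these turned to -0.28 with the summed FPKM made equal. An antisense transcript, Gm43352, shares 1208 exon bases with Lef1, and the library kit does not mark the strand, so their fragments cannot be told apart. Tcf7l1, mostly a repressor of Wnt targets, followed the same order with 3.22, 3.38 and 4.46 FPKM. Tcf7 had 2.54, 2.61 and 2.81 FPKM.
Of 24 TCF/LEF factors and partners, which include beta-catenin itself, the Groucho-type corepressors and the BCL9 and PYGO coactivators, all passed the minimum. Tcf7l2 was the only one past 1.5-fold in either contrast with control, beside 5.52% of all loci in unaffected and 6.62% in affected fetuses. The contrast of unaffected fetuses chose Tcf7l2, so this is a description only. The median log2 ratio of the list was 0.03 in unaffected and 0.15 in affected fetuses against control, beside 0.0073 and 0.02 over all loci. Against unaffected fetuses, 2 of the 24 genes, Bcl9 and Bcl9l, were at least 1.5-fold higher in affected fetuses, with 18.7 and 28.2 FPKM for Bcl9 and 13.6 and 21.3 for Bcl9l. This share is near that of all loci, of which 7.2% were at least 1.5-fold higher.
Among 19 Wnt target genes, 13 passed the minimum and 0 were past 1.5-fold in any contrast. With 5.52%, 6.62% and 12.3% of all loci past it in the 3 contrasts, a count of 0 among 13 genes is near the background. Axin2, a feedback inhibitor that is induced by Wnt signalling in most tissues, had 5.71, 5.87 and 7.0004 FPKM. Nkd1, another feedback inhibitor, had 5.99, 5.66 and 6.35. The median log2 ratio of the targets was -0.03 in unaffected against control, 0.11 in affected against control and 0.10 in affected against unaffected fetuses.

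TCF7L2 is also made in cells of the oligodendrocyte lineage and LEF1 in vessels, so markers of both were read beside them. All 16 genes of that list, Tcf7l2 and Lef1 included, passed the minimum, and their summed level was 192, 186 and 189 FPKM in control, unaffected and affected fetuses. Olig1 and Olig2, which define the lineage, had 16.7, 16.3 and 16.3 FPKM and 9.41, 9.03 and 9.79 FPKM. Both were close between groups. The part of these cells in the Tcf7l2 values was not tested. In whole tissue, fewer cells of a type and less RNA per cell cannot be told apart.

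The remaining thalamic markers differed less from control in unaffected fetuses than Tcf7l2 did. That contrast chose Tcf7l2, so nothing is read from this. Lhx9 (chr1:138825186-138847610, minus strand), a LIM-homeodomain gene of thalamic neurons, had 3.72 FPKM in control, 3.30 in unaffected and 3.70 in affected fetuses. These levels were close, with log2 ratios of -0.17 (counting SE 0.060) and -0.0066 (counting SE 0.055) against control. Gbx2 (chr1:89927962-89931176, minus strand), a homeodomain gene of early thalamic neurons and of cholinergic interneurons, had 1.02, 1.23 and 0.659 FPKM. It was lowest in the affected group, with a log2 ratio of -0.63 (counting SE 0.17) against control and -0.90 (counting SE 0.16) against unaffected fetuses. With a pseudocount of 1 FPKM these became -0.28 and -0.43, both under 1.5-fold. About 153, 202 and 140 fragments stand behind these values. An annotated transcript on the opposite strand, D130058E05Rik, shares 946 exon bases with Gbx2, and here too the fragments cannot be told apart.
Prox1 (chr1:190118472-190170756, minus strand), a homeobox gene of dentate granule cells, thalamic neurons and interneurons from the caudal ganglionic eminence, had 3.43 FPKM in control, 2.897 in unaffected and 4.45 in affected fetuses. The affected group was 1.54-fold higher than the unaffected group (log2 ratio 0.62, counting SE 0.065). Its log2 ratio against control was -0.24 (counting SE 0.074) in unaffected and 0.38 (counting SE 0.064) in affected fetuses.
Calb2 (chr8:110142538-110168206, minus strand) encodes calretinin, a calcium-binding protein of interneurons, Cajal-Retzius cells and some thalamic neurons. It had 34.9 FPKM in control, 32.0 in unaffected and 24.5 in affected fetuses. The affected group was lowest and 1.42-fold below control, with a log2 ratio of -0.51 (counting SE 0.037), while the unaffected group was close to control (-0.12, counting SE 0.037).

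**Figure D2:**
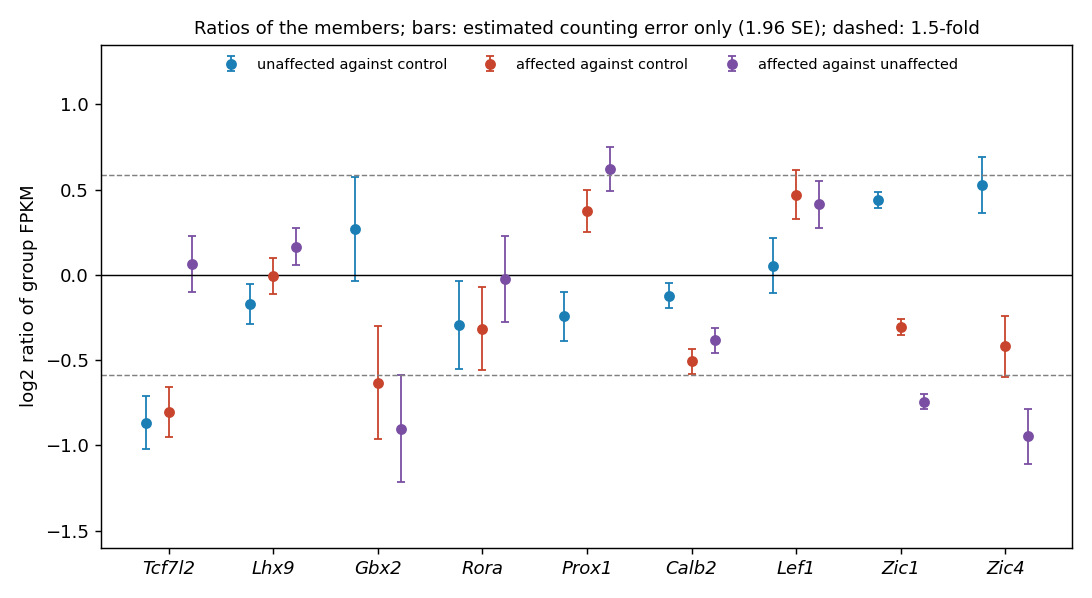
Log2 ratios of group FPKM (vertical axis) of the 9 genes in the 3 contrasts, with bars for the 95% range of the estimated counting error that leave out variation between animals, and dashed lines at 1.5-fold. Tcf7l2 lies below the lower dashed line in both contrasts with control, and Zic1 and Zic4 lie below it in affected against unaffected fetuses.

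Rora (chr9:68653802-69379028, plus strand) encodes an orphan nuclear receptor of thalamic neurons, upper cortical layers and cerebellar Purkinje cells. The locus was near the limit of what was counted, with 0.538 FPKM in control, 0.440 in unaffected and 0.432 in affected fetuses. Its log2 ratios were -0.29 (counting SE 0.13) and -0.32 (counting SE 0.12) against control. The deposited locus ends before the gene does in the GENCODE M21 annotation, which places the end at 69388246. Within the annotated 3' UTR beyond the deposited locus lie 5 loci without a name, at 1.27 to 3.31 FPKM in control, 0.836 to 2.38 in unaffected and 0.980 to 3.14 in affected fetuses. All of these are above the named locus. Their levels were lower than control at 4 of 5 loci in unaffected and at 5 of 5 in affected fetuses. Of all loci, 48.3% and 47.1% were lower by any amount. The log2 ratios of the 5 loci in affected against control fetuses ranged from -1.19 to -0.04, so some were close to equal. The widest difference was at the locus from 69385410 to 69385727, with 2.24, 0.896 and 0.980 FPKM.
The same holds for Prox1, where an unnamed locus of 186 bases (chr1:190118212-190118397) lies in the annotated 3' UTR, 75 bases beyond the named locus. It had 11.96 FPKM in control, 8.78 in unaffected and 20.9 in affected fetuses, the same order as the named locus. These loci are short, so their FPKM depends on how the authors' software corrected for fragment length. Whether their fragments come from the same transcripts was not tested.

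**Figure D3:**
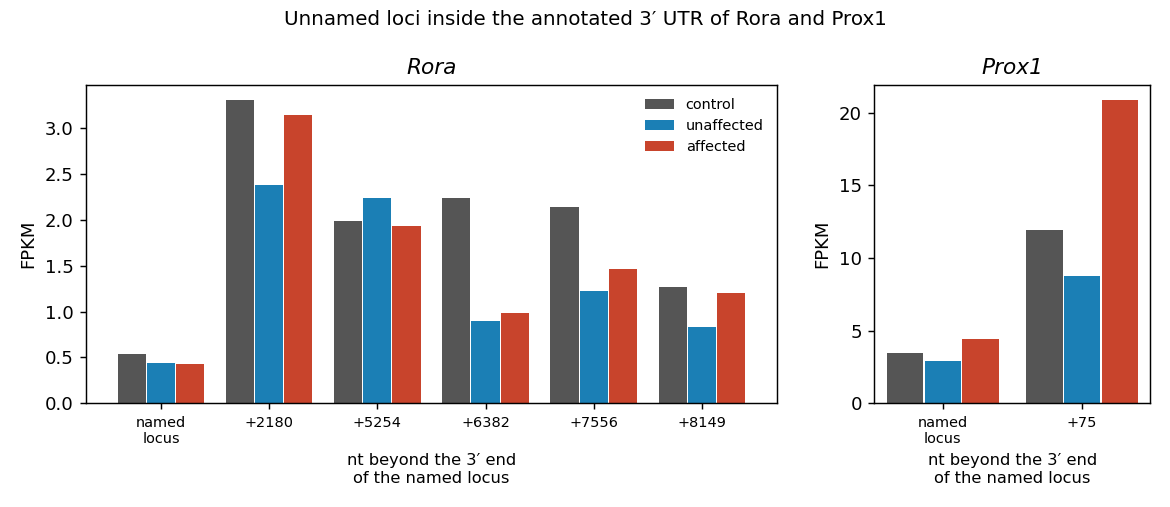
FPKM (vertical axes) of the named loci of Rora and Prox1 and of the unnamed loci inside their annotated 3' UTRs, ordered by distance in nucleotides beyond the named locus, with 1 bar per group. All 5 unnamed loci of Rora are above the named locus, and the unnamed locus of Prox1 is highest in affected fetuses at 20.9 FPKM.

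Over the wider list of 26 thalamic genes, 19 had a mean FPKM of at least 1, and their summed level over all 26 was 353 FPKM in control, 326 in unaffected and 378 in affected fetuses. Several are also transcribed in the cortex, among them Lhx2, at 110, 103 and 138 FPKM, and Foxp1. Levels in the list ranged widely. Slc17a6, the vesicular glutamate transporter that predominates in thalamus, had 23.4, 21.5 and 21.6 FPKM, while Slc6a4, the serotonin transporter of developing sensory relay neurons, had 0.228, 0.253 and 0.227. Leaving aside Tcf7l2 and the other listed thalamic markers of the set, 14 thalamic genes passed the minimum, and 12 of them were lower in unaffected than in control fetuses by any amount, with a median log2 ratio of -0.12, beside 48.3% of all loci. None of these 14 was past 1.5-fold in any contrast. In affected against control fetuses, 9 of the 14 were higher, with a median of 0.16, beside 52.9% of all loci. The habenula list had 7 of 16 genes above the minimum, and its defining gene Pou4f1 stayed at 0.0708, 0.0291 and 0.0506 FPKM. Of its genes, Nhlh1 was at least 1.5-fold higher in affected fetuses against control, and Nr4a2 higher and Tac1 lower against unaffected fetuses. Of all loci, 3.48% were that much higher in the first of these contrasts, and 7.2% higher and 5.13% lower in the second. The name thalamic describes where these genes are best known, and the cells from which their RNA came were not identified.

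Zic1 had 21.7 FPKM in control, 29.4 in unaffected and 17.5 in affected fetuses. The unaffected group was highest and the affected group lowest. The log2 ratio was 0.44 (counting SE 0.023) in unaffected against control, which is 1.36-fold, -0.31 (counting SE 0.025) in affected against control, and -0.74 (counting SE 0.022) in affected against unaffected fetuses. Zic4 had 5.78 FPKM in control, 8.34 in unaffected and 4.32 in affected fetuses, in the same order as Zic1. Its log2 ratios were 0.53 (counting SE 0.083), which is 1.44-fold and just under the limit of 1.5, -0.42 (counting SE 0.091) and -0.95 (counting SE 0.082). In GENCODE M21 a longer Zic4 transcript reaches into Zic1 and shares 60 exon bases with it on the opposite strand, and Gm37477 shares 468 exon bases with Zic4. Between affected and unaffected fetuses, Zic1, Zic4 and Prox1 made 3 of 7 genes past 1.5-fold, while 12.3% of 15467 loci were. Zic1 and Zic4 were lower, as 5.13% of the loci were, and Prox1 was higher, as 7.2% were. This contrast uses the unaffected values that chose Zic1 and Zic4, so the count is a description. Prox1 was under 1.5-fold with a pseudocount of 1 FPKM (log2 ratio 0.48) and relative to loci of like FPKM (0.54) or like transcript length (0.51), and Zic1 was under it with the summed FPKM made equal (-0.44), so that Zic4 was the only one of the 3 past 1.5-fold under every alternative.
In the deposited FPKM, Zic2 and Zic5 were also highest in the unaffected group. Zic2, which is mutated in holoprosencephaly, had 10.01 FPKM in control, 11.9 in unaffected and 10.8 in affected fetuses. Zic5, the neighbour of Zic2, had 2.51, 3.11 and 2.39. The log2 ratios of these genes in unaffected against control were 0.24 and 0.31, neither past 1.5-fold. With the summed FPKM made equal they were -0.09 and -0.03, beside 0.10 for Zic1 and 0.19 for Zic4, so the sign for Zic2 and Zic5 depends on the scaling, while all 4 stayed above the median locus. In affected against control fetuses, the log2 ratio was 0.11 for Zic2 and -0.07 for Zic5. Of the related factors, Gli2 and Gli3 stood apart, with 1.89, 1.97 and 3.20 FPKM and 3.01, 2.70 and 4.76 FPKM, at least 1.5-fold higher in affected fetuses against control. Gli1, which was under the minimum, was not higher in affected fetuses, with 1.01, 1.04 and 0.919 FPKM. In the list of 11 Zic and Gli-related genes, 8 passed the minimum, and 2 were past 1.5-fold in affected against control fetuses. Of all loci, 6.62% were past 1.5-fold in that contrast, 3.48% higher.
An unnamed locus 21617 bases from Zic1 (chr9:91338238-91338728) had 1.498 FPKM in control, 2.07 in unaffected and 1.01 in affected fetuses. It was in the same order as the Zic pair, and it was chosen after its values were seen.

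Because Zic1 and Zic4 are transcribed in septum and meninges, those lists were read beside them. Of 12 septal genes, 10 passed the minimum, and the summed level of the list was 66.2 FPKM in control, 90.1 in unaffected and 64.9 in affected fetuses. That sum holds Zic1 and Zic4 themselves, whose values chose them, and without the pair it was 38.8, 52.4 and 43.0 FPKM. The 3 genes past 1.5-fold in unaffected against control were Lhx8, a LIM-homeodomain gene of cholinergic neurons of the basal forebrain, with 3.23, 6.78 and 2.93 FPKM, Fgf15 with 4.13, 7.83 and 3.76, and Nkx2-1 with 3.51, 5.67 and 3.69. All 3 were highest in the unaffected group, and 2.47% of all loci were at least 1.5-fold higher in that contrast. Without the Zic pair, 7 of 8 septal genes were higher in unaffected than in control fetuses by any amount, with a median log2 ratio of 0.32, beside 51.7% of all loci that were higher by any amount and a median of 0.0073 over all loci. Nkx2-1 and Lhx8 also stand in the list of prethalamic and hypothalamic genes, where 12 of 21 passed the minimum, all 12 were higher in unaffected fetuses by any amount, and 2 were past 1.5-fold. With the summed FPKM made equal, the median log2 ratio of the septal list, the Zic pair included, went from 0.38 to 0.046, that of the prethalamic and hypothalamic list from 0.31 to -0.03 and that of the choroid plexus list from 0.27 to -0.07. In that second list Rax and Nkx2-4, defining genes of the hypothalamus, were near 0 in every group. The summed level of the 17 meningeal markers was 330, 297 and 221 FPKM. Without Zic1, Zic4 and Ptgds it was 136, 127 and 117 FPKM. In unaffected fetuses, 12 of the 14 that passed the minimum, leaving aside the Zic pair, were lower than in control by any amount. Their median log2 ratio was -0.11, and 48.3% of all loci were lower in that contrast. In affected against control fetuses, 11 of the 14 were lower, the direction of Zic1 and Zic4 in that contrast, with a median log2 ratio of -0.25, while 47.1% of all loci were lower by any amount. Ptgds, which encodes a prostaglandin synthase of the leptomeninges, was past 1.5-fold, with 167, 132 and 82.6 FPKM, and Dcn, which encodes the proteoglycan decorin, had 31.6, 28.1 and 22.1. The collagen genes Col1a1, at 13.7, 12.5 and 14.6 FPKM, and Col3a1, at 16.9, 15.7 and 16.2, were close between groups. The choroid plexus list, led by Ttr at 970, 1291 and 1077 FPKM, had 9 of 12 genes above the minimum, all 9 higher in unaffected than in control fetuses, none past 1.5-fold, and a summed level of 1011, 1341 and 1125 FPKM. The part of septal or other tissue in the Zic values was not tested, and no dissection record was analysed here.

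**Figure D4:**
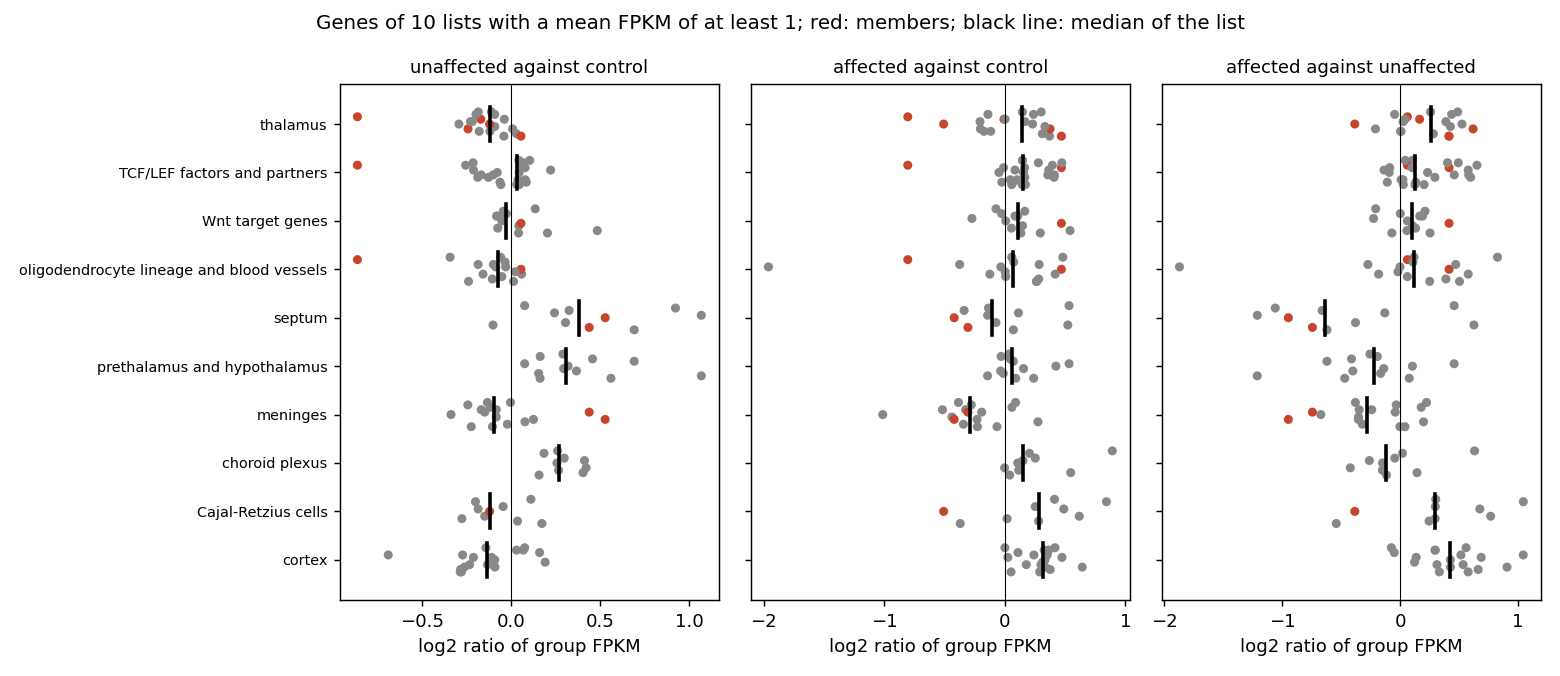
Log2 ratios of group FPKM (horizontal axes) in the 3 contrasts for the genes of 10 lists with a mean FPKM of at least 1, with the 9 described genes in red, other genes in grey and the median of each list as a black line. In unaffected against control fetuses Tcf7l2 lies alone at the far left of its lists, while the septal genes have a median of 0.38, or 0.32 without Zic1 and Zic4. That contrast chose Tcf7l2, Zic1 and Zic4, so their places in it are a description only.

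Calb2 and Prox1 also mark other cells of the cortex. In the list of caudal and olfactory bulb interneurons all 15 genes passed the minimum. Those past 1.5-fold in affected against control fetuses were Scgn, which encodes the calcium-binding protein secretagogin, with 1.87, 2.23 and 0.978 FPKM, and Th, the enzyme of dopamine synthesis, with 1.73, 1.67 and 0.954 FPKM. Both were lower in the affected group, as 3.14% of all loci were by at least 1.5-fold. In the whole list, 9 of the 15 genes were higher in affected than in control fetuses by any amount, with a median log2 ratio of 0.12. This count is near the share of all loci, of which 52.9% were higher. Gad1, at 23.2, 23.9 and 20.9 FPKM, and Gad2, at 11.8, 13.4 and 12.9, were closer between groups. In the Cajal-Retzius list, 9 of 11 genes passed the minimum, and Calb2 went against most of the others in affected fetuses. Reln, the secreted protein that defines these cells, had 22.7, 19.9 and 31.8 FPKM, Trp73 had 2.22, 2.00 and 3.41, and Ebf3 had 1.70, 1.48 and 3.04. The list of dentate gyrus and hippocampus, which holds Prox1 and Lef1, had 7 of 10 genes above the minimum, and apart from Prox1 none was past 1.5-fold in any contrast. Of all loci, 5.52%, 6.62% and 12.3% were past it in the 3 contrasts. In a list of 22 relatives of the LIM-homeodomain, Gbx, Ror and Prox genes, which also holds Calb2, 11 passed the minimum, and the 2 past 1.5-fold in unaffected against control were Lhx8 and Gbx1, the paralog of Gbx2, with 0.701, 1.60 and 0.758 FPKM, while 2.47% of all loci were at least 1.5-fold higher. The 18 cortical markers all passed the minimum, and all 18 were higher in affected than in control fetuses by any amount, with a median log2 ratio of 0.32, beside 52.9% of all loci. In unaffected against control fetuses, 13 of the 18 were lower by any amount, beside 48.3% of all loci. Their median was -0.14, close to the -0.12 of the thalamic list.

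The genes with the pattern most like that of Zic1, Zic4 and Tcf7l2 were sought among 12354 single-gene loci, by the distance between log2 FPKM over the 3 group values, each centred on its own mean. For Zic1 the nearest were Nudt7, Art3, Apoc1, G0s2 and Fam101a, at distances of 0.0082 to 0.056, and 81 loci were nearer to Zic1 than Zic4, whose distance was 0.145. For Zic4 the nearest were A230065H16Rik, G0s2, Gm11627, Aldh1a3 and Cbr3, at 0.081 to 0.13. Patterns over 3 values are easily shared, and 349 loci lay within 0.2 of Zic1. Tcf7l2 had no locus within 0.2. The distance uses the control and unaffected values that chose these genes, and a wide difference between groups leaves fewer loci nearby. Nothing is therefore read from these counts. Its nearest were Lypd2, with 4.02, 2.79 and 2.54 FPKM, and Mnd1, Lin28b, Snord22 and Parp9, at distances of 0.24 to 0.27.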

How the data were processed

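Fetal cortex RNA libraries from 9 mice (TruSeq kit, 50-bp paired ends) were aligned to mm10. The methods name STAR and also Bowtie with TopHat, and the submitters' processing notes name Bowtie2 2.2.4.0, Cufflinks and Cuffdiff. The authors deposited 1 FPKM per locus and group, pooled over 3 animals. The table also holds the authors' own comparisons (fold change, test statistic, p-value and q-value), which were not used, so no test stands behind any difference.

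Log2 ratios were computed from the FPKM without a pseudocount. Loci with a mean FPKM of at least 1 were compared at a limit of 1.5-fold, and between 74 and 85 of 15548 such loci at an FPKM of 0 in a group were left out of a contrast. The genes named are the 9 genes, other Zic and TCF/LEF genes, cortical markers, genes of the lists past 1.5-fold (at most 4 per list and contrast) and the 5 nearest patterns, and some genes that the rule names are not reported here. Further genes of the lists are named as markers, and were chosen after their values were seen. The genes and the lists, written from general knowledge, were chosen with earlier results of these data known. The calculations were tested on simulated data. Fragments per gene were estimated from the median length of coding transcripts (GENCODE M21, GRCm38), so counting errors are approximate. Alternatives were pseudocounts of 0.1 and 1, other scalings, fold limits and filters. Python 3.11.15, pandas 2.3.3 and numpy 2.4.6 were used.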

Additional observations from a re-analysis of the deposited data

How the results depend on the processing

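No paired analysis was possible because the table holds 1 value per group, and for the same reason no animal could be left out. Of the 189 alternative ratios of the 9 genes, 157 stayed within the 95% range of the counting error, 32 moved further, and none of those past 1.5-fold changed sign, though Prox1 and Zic1 in affected against unaffected fetuses and Gbx2 in both contrasts of affected fetuses went under 1.5-fold in some, as given above. Rescaling each group to the same summed FPKM shifted every log2 ratio by -0.34 in unaffected against control and by 0.31 in affected against unaffected, and Lef1 and Gbx2 changed sign in the former. In affected against unaffected fetuses, the small ratios of Tcf7l2, Lhx9 and Rora changed sign under at least 1 alternative. Over all alternatives the log2 ratio against control stayed between -1.20 and -0.65 for Tcf7l2 in unaffected fetuses and between -0.86 and -0.61 in affected fetuses, between 0.10 and 0.50 for Zic1 and between 0.19 and 0.54 for Zic4 in unaffected fetuses. A ratio relative to loci of like transcript length was added after seeing the data, with a length for 99.1% of single-gene loci, and it left Lef1 at 0.33 in affected against unaffected fetuses. The numbers of loci and of genes past the limit depended on the limit by construction. For unaffected against control, 853 loci became 1943 at the lower fold limit, 315 at 2-fold, 2668 without the filter and 222 at a mean FPKM of at least 5. For affected against control, 1025 became 3733, 337, 3208 and 278, and for affected against unaffected 1907 became 6067, 454, 4234 and 827. Of the 7 genes, 3, 5 and 5 were past the lower fold limit in these contrasts and 0, 0 and 0 past 2-fold. All 96 medians of the lists under a stricter filter or centring on the median locus stayed within 1 SD of the list's genes. The rescaled medians of the lists and ratios of Zic2 and Zic5 were added after seeing the data.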
